A study of Mus musculus with 4 samples.

Results

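S100 proteins, annexins and galectins were examined in mouse Th17 cells, CD4 helper T cells that make IL-17, after transduction with a CRISPR guide to Adarb1. Adarb1 encodes ADAR2, an enzyme that converts adenosine to inosine in double-stranded RNA. The 10 genes were S100a4, S100a6, S100a10, S100a11, S100a13, Anxa1, Anxa2, Anxa5, Lgals1 and Lgals3, chosen by name from the 55450 genes of the authors' deposited table with its fold changes known. Of these 55450 genes, 29383 had a fold change, and 14547 had a mean normalized count of at least 10, as did all 10. There were 2 sgAdarb1 cultures and 2 empty vector cultures, 1 of each from each of 2 donor mice described as wild type in the series' design text. All 4 cultures carried a Cas9 transgene and received the PSIN retroviral vector, and the control vector held no guide. The mice were 8 to 12 weeks old, and their naive CD4 T cells were activated with antibodies to CD3 and CD28, transduced after 24 h and kept in TGF-β and IL-6 for 72 h. The treatment tag goes against the title in 2 of the 4 samples, and groups are named here by title. Which of these the authors' fold changes follow was not checked, and by the tag they would compare replicate 2 with replicate 1.

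S100 proteins are small calcium-binding proteins that pair with one another and, on binding calcium, with larger partners. Annexins bind negatively charged membrane lipids in a calcium-dependent way, and several of them carry a bound pair of S100 proteins. Galectins bind β-galactoside sugars on cell surface glycoproteins and, like several S100 proteins and annexin A1, leave the cell without a signal peptide. In T cells, transcripts of several of these genes are known to be higher in effector and memory cells than in naive cells.

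The 10 genes all lay on the sgAdarb1 side of 0, with log2 fold changes between 0.10 and 0.47 and a median of 0.14 per the authors' deposited table. None passed the test. Per the authors' deposited table (DESeq2), the adjusted p of each was 1.00, and 0% of the 29383 genes were below 0.05. At a looser adjusted p of 0.1 none of the 10 passed, beside 0.0102% of all genes. With the adjustment limited to genes whose mean was at least 10 or at least 50, none of the 10 passed either, beside 0.0206% and 0.0187% of the genes then tested. S100a6 at 0.47 ± 0.18 (log2, SE) and Lgals1 at 0.21 ± 0.08 had an unadjusted p below 0.05 per the authors' deposited table. That mark was reached by 0.208% of all genes, by 0.0987% on the positive side, and by 58 of the 8183 genes whose mean was at least 200. If no gene differed, a share near 0.05, as a fraction and not in percent, would be reached. The shares seen are smaller, so the deposited p-values look conservative and the intervals may be too wide. The cause was not tested, and not passing does not show that a gene did not differ. The values of the 10 genes come from the contrast with which they were chosen, so nothing is read from the count of 2 or from the shared direction. Among the 14547 genes whose mean was at least 10, 50.5% were positive and the median was 0.00. Only 1 fold change per gene was usable, since the names of the 4 columns of library values match no label, so values per culture are not given here. The table does not name its numerator. Signs are read as sgAdarb1 over empty vector, as the design text orders them, and all of them turn if the authors used the other order. In bulk RNA, fewer cells of a type and less RNA per cell cannot be told apart.

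**Figure D1:**
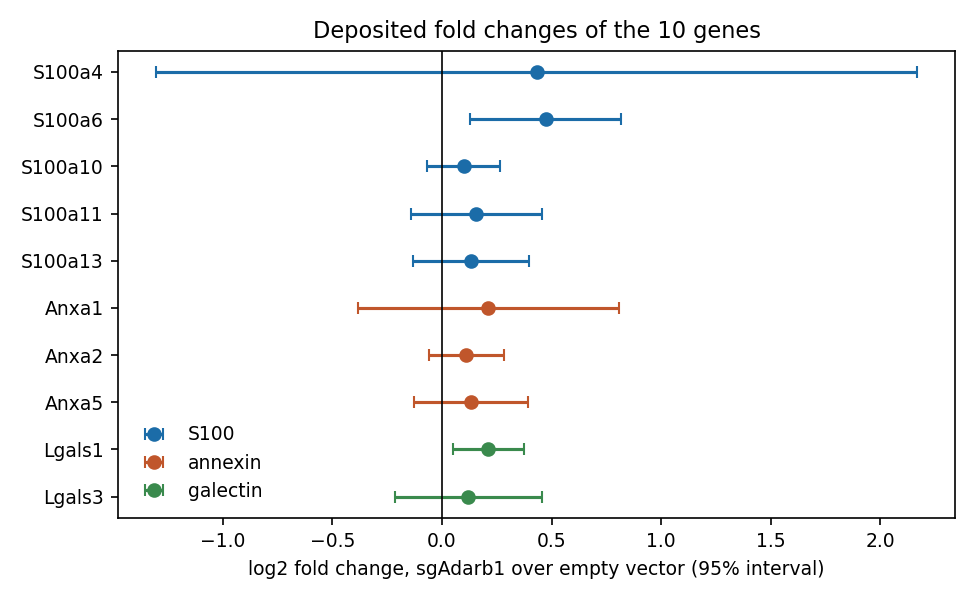
Points give the deposited log2 fold change of sgAdarb1 over empty vector for each of the 10 genes (horizontal axis), coloured by family, and bars the 95% interval computed from the deposited SE. All 10 points lie right of 0, and the intervals of S100a6 and Lgals1 alone leave out 0.

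The 95% intervals computed from the deposited standard errors overlapped for all 10 genes, which share the span from 0.13 to 0.27. For 9 of the 10, the interval left out a log2 difference of 1 in either direction. The exception was S100a4. The deposited SE of each gene was 0.961 to 1.10 times the running median of genes of similar mean. The deposited SE thus did not set the 10 apart from genes of their level, and their spread over cultures is not known. Whether any of them differed from another could not be tested without values per library.

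**Figure D2:**
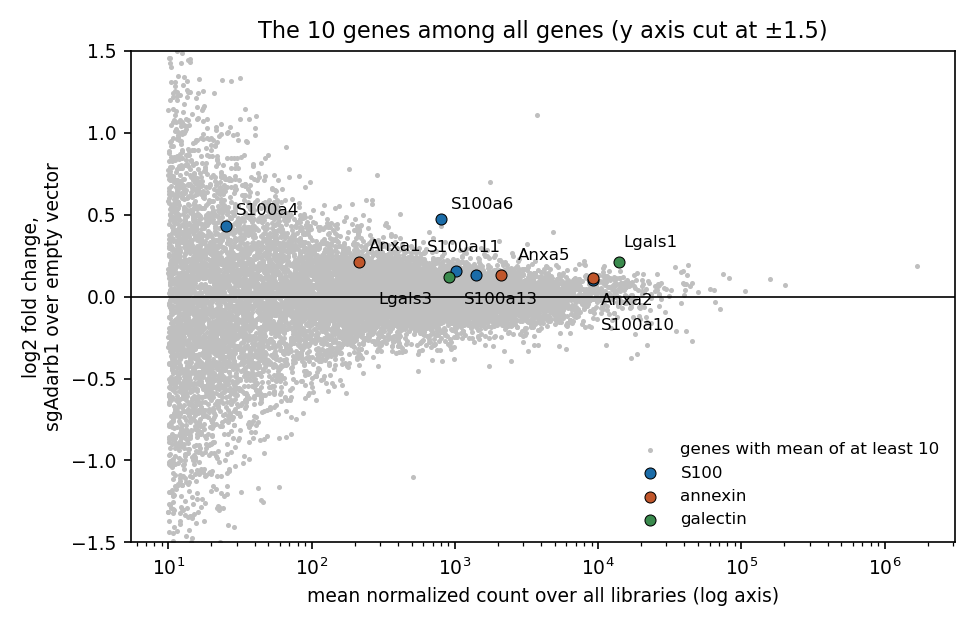
Each grey point is a gene with a mean normalized count of at least 10 (horizontal axis, log scale) and its deposited log2 fold change (vertical axis, cut at ±1.5), with the 10 genes in colour. S100a6 stands above most genes of similar mean, while S100a4 lies where fold changes scatter widely.

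Levels ranged widely. Per kilobase of annotated exon, Lgals1 was highest at 15598 mean normalized counts and S100a10 next at 7590. Anxa2 followed at 2462, S100a11 at 2006, S100a13 at 1963 and Anxa5 at 1181. S100a6 stood at 581, Lgals3 at 488, Anxa1 at 73.1 and S100a4 at 43.0. The order is of means over all libraries of both groups, computed from the authors' deposited table, and the spread of neighbours over cultures is not known.

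S100a6 encodes calcyclin, named for its rise in growth-stimulated cells, which binds the ubiquitin ligase partner encoded by Cacybp. It lies on chromosome 3 (chr3:90612882-90624181, plus strand, mm10). Its mean normalized count was 795, and its unadjusted p of 0.00725 was the 7th smallest of 29383 per the authors' deposited table. The log2 value corresponds to 1.39-fold, with a 95% interval from 1.09 to 1.76. Cacybp itself was at -0.10 ± 0.11 per the authors' deposited table.

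S100a4 (chr3:90603771-90606045, plus strand, mm10), separated from S100a6 by S100a5, encodes a protein that binds non-muscle myosin and is known for its part in cell motility. Its mean was only 25.1 and its log2 fold change 0.43 ± 0.89 (unadjusted p = 0.626) per the authors' deposited table. The 95% interval ran from -1.30 to 2.17, so neither direction can be read. Of its 584 exon bases, 302 are shared with the annotated gene Gm42674 on the same strand, and Gm42674 is listed at a mean of 0. The sources used here do not state how reads falling in both genes were counted, and the low S100a4 level is uncertain for that reason. Myh9, the myosin heavy chain bound by S100A4, was at 0.01 ± 0.08 per the authors' deposited table.

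S100a10 and Anxa2 encode the subunits of a complex in which a pair of S100A10 chains joins annexin A2 molecules at the plasma membrane. S100A10 has lost calcium binding and stays in its active form. S100a10 (chr3:93555080-93564643, plus strand, mm10) had a mean of 9199 and a log2 fold change of 0.10 ± 0.09 per the authors' deposited table. Anxa2 (chr9:69453620-69491795, plus strand, mm10) had a mean of 9187 and a log2 fold change of 0.11 ± 0.09 per the authors' deposited table. Both means and both fold changes were thus close, although the exons of Anxa2 total 3731 bases against 1212 for S100a10. Ahnak, a giant scaffold protein that binds this complex, was at 0.09 ± 0.08 per the authors' deposited table.

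S100a11 and S100a13 had lower means, with fold changes of similar size. S100a11 (chr3:93520488-93526287, plus strand, mm10), whose product binds annexin A1, had a mean of 1025 and a log2 fold change of 0.16 ± 0.15 per the authors' deposited table. Of the 50-base words in its longest transcript, 41.1% also occur in processed pseudogenes, chiefly Gm12854 with a mean of 2.98, so reads may have been lost or split there and its level is uncertain. S100a13 (chr3:90514435-90524581, plus strand, mm10), whose product takes part in the non-classical release of FGF1 and IL-1α, had a mean of 1404 and stood at 0.13 ± 0.14 per the authors' deposited table. Il1a was at 0.48 ± 0.58 with a mean of 56.4 per the authors' deposited table.

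Among the annexins, Anxa1 and Anxa5 were measured less closely than Anxa2. Annexin A1, a mediator induced by glucocorticoids, acts through formyl peptide receptors. Anxa1 (chr19:20373428-20390944, minus strand, mm10) had a mean of 213 and a log2 fold change of 0.21 ± 0.30 per the authors' deposited table. Its receptor genes Fpr1 and Fpr2 had means of 0.235 and 0.469 per the authors' deposited table. Annexin A5 binds phosphatidylserine, the lipid exposed by dying cells. Anxa5 (chr3:36448923-36475894, minus strand, mm10) had a mean of 2099 and stood at 0.13 ± 0.13 per the authors' deposited table.

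Galectin-1 is secreted by activated T cells and is known to promote the death of activated effector T cells. Lgals1 (chr15:78926725-78930465, plus strand, mm10) had a mean of 14085 and an unadjusted p of 0.0104, the 11th smallest, per the authors' deposited table. The log2 value corresponds to 1.16-fold, with a 95% interval from 1.04 to 1.30. Galectin-3, the chimera-type galectin, binds branched N-glycans of the T cell receptor made by the enzyme that Mgat5 encodes. Lgals3 (chr14:47367751-47386160, plus strand, mm10) had a mean of 907 and a log2 fold change of 0.12 ± 0.17 per the authors' deposited table. Mgat5 was at -0.02 ± 0.14 and Lgals3bp, which encodes a secreted galectin-3 ligand, at 0.06 ± 0.10 per the authors' deposited table.

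Short transcripts in this table lay more often on the positive side, and most of the 10 genes are short. Among the 8052 protein-coding genes whose mean was at least 200, split into 5 groups by exon length, 64.7% of the shortest group were positive (median 0.04), as were 38.6% of the longest group (median -0.02). The shortest group reached up to 2800 bases, and 8 of the 10 genes lie below that bound, with Anxa1 and Anxa2 above it. The median exon length was 1290 bases for the 10 genes and 3960 bases for all genes whose mean was at least 10. When the dependence of fold change on GC content and exon length was subtracted, all 10 stayed positive (48.5% of all tested genes were positive), with a median of 0.11 against 0.14 before. In this fit, weighted by inverse variance, S100a6 was at 0.43, Lgals1 at 0.15 and S100a10 at 0.06, and Anxa1 alone moved up, to 0.23. Without weights, Anxa1 (0.27), S100a4 (0.47) and S100a11 (0.19) moved up and the others moved down. The median was then 0.15, so the direction of its shift depended on the weights.

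**Figure D3:**
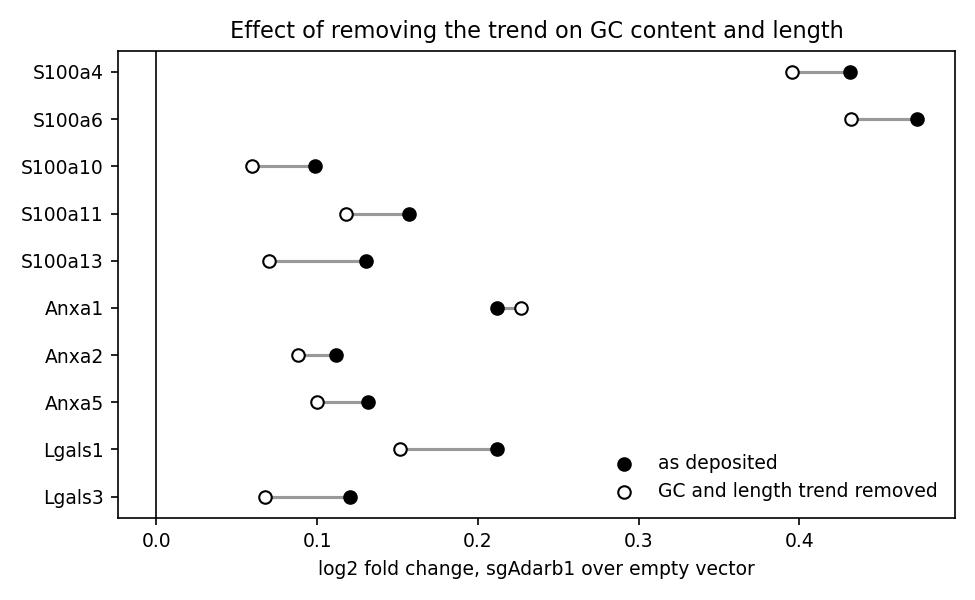
Filled points give the deposited log2 fold change of each of the 10 genes (horizontal axis, log2). Open points give the value after removal of a trend on GC content and exon length, fitted with weights over all genes with a mean of at least 10. All open points remain right of 0, and 9 of them lie left of their filled point.

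The other genes of the 3 families lay on both sides of 0, and none passed. The S100 list of 17 genes had 16 in the table, of which 8 had a mean under 10 and S100z a mean of 0. The 2 further S100 genes above that level were S100a1 at 0.01 ± 0.31 and S100a3 at -0.31 ± 1.00 per the authors' deposited table. S100a8 and S100a9, subunits of calprotectin from neutrophils, had means of 5.40 and 9.86 and standard errors of 4.81 and 4.78 per the authors' deposited table, which leaves their direction unknown. Also under a mean of 10 were S100b at 3.10 ± 2.59, S100a5 at 0.65 ± 2.19, S100a14 at 0.86 ± 4.46, S100g at -1.39 ± 3.63, S100a7a at -1.86 ± 4.93 and S100a16 at -1.83 ± 4.93 per the authors' deposited table. Of the 6 further annexin genes with a mean of at least 10, 5 were positive, with a median of 0.09. They were Anxa11 at 0.27 ± 0.22, Anxa3 at 0.11 ± 0.88, Anxa6 at 0.10 ± 0.09, Anxa4 at 0.09 ± 0.20, Anxa7 at 0.03 ± 0.13 and Anxa9 at -0.04 ± 0.54 per the authors' deposited table. Anxa8, Anxa10 and Anxa13 had means of 0.470, 0.495 and 1.02 per the authors' deposited table. Of the 5 further galectin genes, 3 were positive, with a median of 0.05. Lgals9, whose product is a ligand of the receptor TIM-3, was at 0.12 ± 0.14, Lgals8 at 0.11 ± 0.30, Lgalsl at 0.05 ± 0.31, Lgals7 at -0.02 ± 0.29 and Lgals4 at -0.27 ± 0.55 per the authors' deposited table. Havcr2, which encodes TIM-3, was at -0.25 ± 0.18 per the authors' deposited table. Lgals12 had a mean of 1.02 and Lgals2 a mean of 0 per the authors' deposited table.

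**Figure D4:**
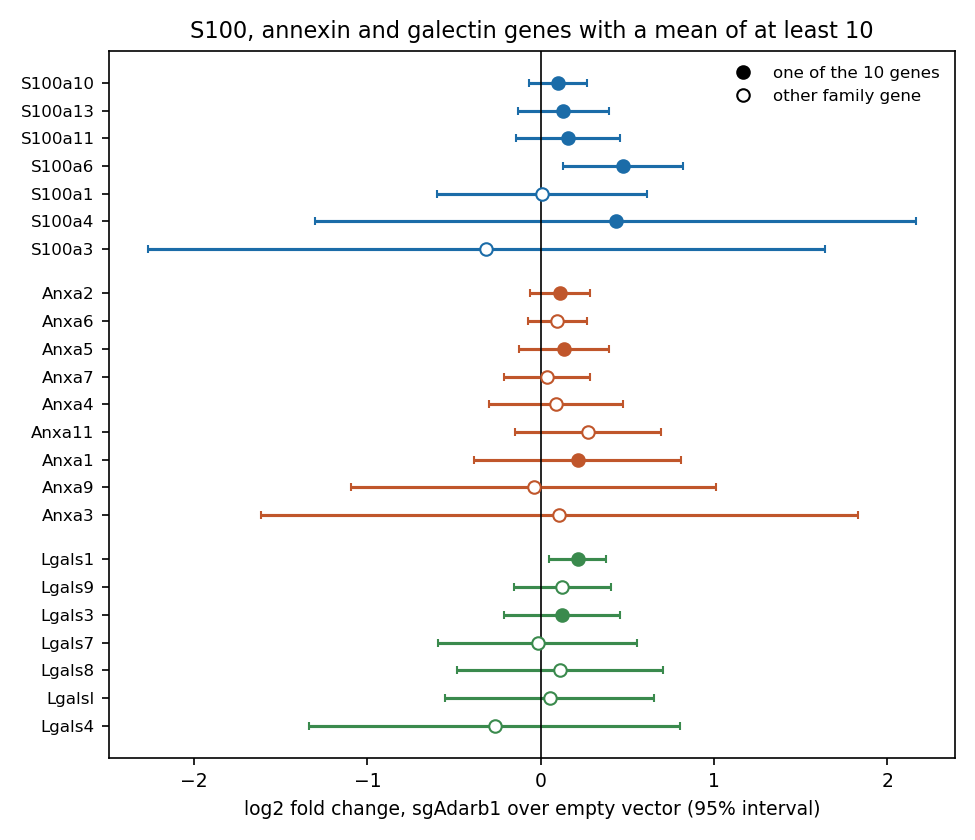
Points give the deposited log2 fold change of sgAdarb1 over empty vector for every listed S100, annexin and galectin gene with a mean of at least 10, from highest to lowest mean within a family, with the 95% interval as bars. Filled points are the 10 genes, and S100a3 and Lgals4 are the open points farthest left of 0.

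All 5 S100 genes lie on chromosome 3, in a group of 13 listed S100 genes. Along it, S100a6 stands between S100a5 and S100a7a, which both had means under 10, and S100a13 lies beside S100a1, which runs on the opposite strand. S100a11 and S100a10 lie about 3 Mb farther on, next to each other in the list at 3009 and 3044 kb from the start of S100a1.

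**Figure D5:**
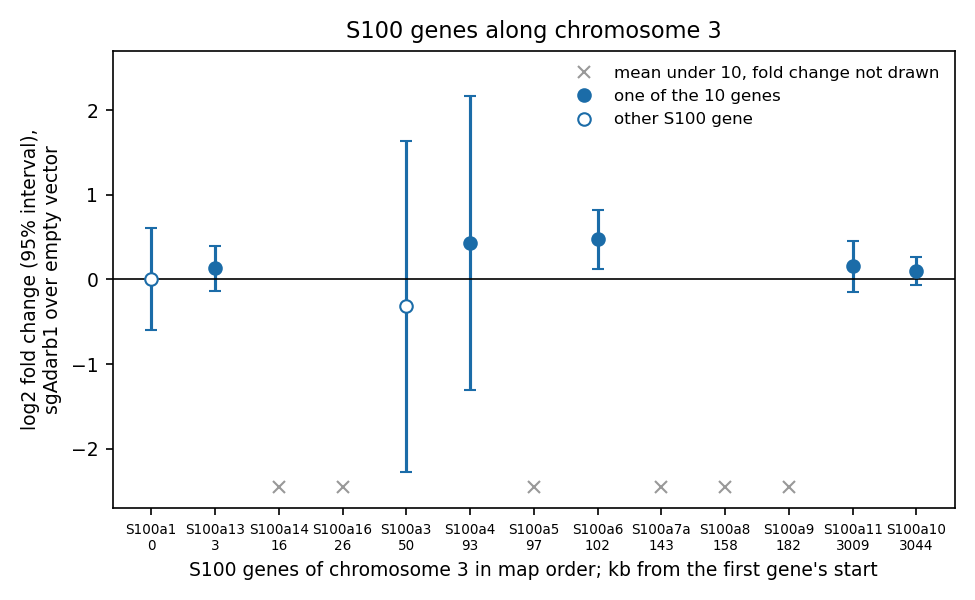
The 13 listed S100 genes of chromosome 3 are drawn in map order (horizontal axis, with kb from the start of S100a1) against their deposited log2 fold change with its 95% interval (vertical axis). Only S100a6 has an interval that leaves out 0, and the crosses at the bottom mark 6 genes with means under 10 whose fold changes are not drawn.

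Upstream sequences are shown for S100a6, which had the largest fold change, and beside it for S100a4 of the same gene cluster, S100a11 and Anxa2. RefSeq's promoter table (GRCm38.p6) held 8 of the 10 genes, and positions count back from its transcription start. Capitals mark TATAAA (the letters of the TATA box, wherever they fall), TGANTCA (the AP-1 site where N is C or G) and GGGCGG (the core GC box), searched on both strands. The stretches are chr3:90603670-90603769 for S100a4, chr3:90612794-90612893 for S100a6, chr3:93520396-93520495 for S100a11, each from -100 to -1, and chr9:69453520-69453619 for Anxa2, from -163 to -64, all on the plus strand. The Anxa2 stretch ends just before its GENCODE gene start, which lies upstream of the RefSeq start. The S100a6 and S100a11 stretches end shortly inside their GENCODE genes, which start at 90612882 and 93520488.
S100a4: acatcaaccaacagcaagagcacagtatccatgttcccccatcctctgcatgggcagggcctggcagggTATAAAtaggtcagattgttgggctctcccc
S100a6: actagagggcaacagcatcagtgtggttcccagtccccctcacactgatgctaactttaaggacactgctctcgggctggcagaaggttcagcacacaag
S100a11: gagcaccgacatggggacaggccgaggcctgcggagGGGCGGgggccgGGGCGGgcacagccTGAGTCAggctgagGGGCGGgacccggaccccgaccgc
Anxa2: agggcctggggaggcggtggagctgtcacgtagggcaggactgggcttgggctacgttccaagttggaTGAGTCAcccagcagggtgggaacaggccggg
In the 250 bases before the start, TATAAA was found for Anxa1, Anxa2 and S100a4, and in 12.4% of all 32851 promoters. It began at -32 for Anxa1 and -31 for S100a4, but at -17 for Anxa2, inside the GENCODE gene. TGANTCA was found for Anxa2 and S100a11, where each match reads TGAGTCA, and with any base at N in 6.75% of all promoters. GGGCGG was found for Anxa2, Lgals3 and S100a11, and in 32.7% of all promoters. For Anxa2 it began at -190, upstream of the GENCODE gene, and at -48 and -24, inside it. S100a6, S100a13 and Anxa5 held none of these letters in this window. No motif was common to all 8 genes.

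Genes that often accompany these transcripts in effector and migratory T cells were 12 positive and 5 negative among 17, with a median of 0.06. Lmna, which encodes lamins A and C of the nuclear envelope, was at 0.32 ± 0.12 (unadjusted p = 0.00796) per the authors' deposited table. Vim, the intermediate filament protein vimentin, was at 0.14 ± 0.08, the actin-capping gene Capg at 0.17 ± 0.11 and the thymosin gene Tmsb10 at 0.15 ± 0.11 per the authors' deposited table. None of the 17 passed, and after subtraction of the GC and length dependence 10 of 17 were positive with a median of 0.02. Binding partners and receptors were 9 positive and 6 negative among 15, with a median of 0.01. Dysf, which encodes the membrane repair protein dysferlin, was at 0.50 ± 0.54 per the authors' deposited table.

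Markers of the labelled cell type were present, with Cd4 at a mean of 15286 and Il17a at 1756 per the authors' deposited table. The Th17 cytokine genes Il17a at 0.70 ± 0.15 and Il17f at 1.11 ± 0.53 had the largest fold changes among those markers per the authors' deposited table. Neither passed over all genes (adjusted p = 0.0709 and 1.00). With the adjustment limited to genes whose mean was at least 10, Il17a was among the 3 of 14547 genes below 0.05. The Th17 markers were 7 positive and 1 negative among 8, with a median of only 0.06. The negative one was Ccr6 at -0.19 ± 0.49, and Batf and Irf4 were both at 0.01, per the authors' deposited table. Myeloid cells also express S100a4, Anxa1 and Lgals3, and their markers were present at low levels. Of 15 myeloid markers, 9 had a mean of at least 10, and all 9 were positive with a median of 0.43, among them Fcgr3 at 1.69 ± 1.29 and Csf1r at 1.35 ± 1.32 with means of 11.9 and 11.7 per the authors' deposited table. The most abundant, Ctss and Cst3, were at 0.01 ± 0.13 and 0.02 ± 0.14 per the authors' deposited table. The median was 0.22 at a minimum mean of 50, and 7 of 9 were positive after subtraction of the GC and length dependence. The complement genes C1qa, C1qb and C1qc were at 0, and the markers summed to a mean of 3689, most of it from Ctss at 1930 and Cst3 at 1428, per the authors' deposited table. The part of myeloid cells in the values of the 10 genes was not tested. Of 10 neutrophil markers only Ly6g had a mean of at least 10 (1.44 ± 1.27), and Retnlg was at 0, per the authors' deposited table. B cell markers were 2 positive and 5 negative, CD8 T and NK cell markers 3 and 1, mast cell markers 1 and 1, and fibroblast markers 0 and 2, among genes with a mean of at least 10. The mast cell protease genes Cpa3 and Cma1 lay far to the negative side, at -5.66 ± 1.26 with a mean of 28.7 (adjusted p = 0.0709) and at -4.70 ± 1.98 with a mean of 8.20 (adjusted p = 1.00) per the authors' deposited table. With the adjustment limited to genes whose mean was at least 10, Cpa3 too was among the 3 genes below 0.05. Kit, the most abundant of the mast cell markers with a mean of 66.8, was at 0.03 ± 0.54 per the authors' deposited table. The part of mast cells in the values of the 10 genes was not tested. Adarb1 itself was at 0.11 ± 0.12 per the authors' deposited table, with a mean of 2130. Since a gene cut by Cas9 may still be transcribed, that value checks no label.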

How the data were processed

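The 4 cultures of mouse Th17 cells, 2 with sgAdarb1 and 2 with empty vector, gave 1 RNA library each. The mm10 build, STAR (2.6.1a), DESeq2 (1.18.1) and featureCounts stand in the submitters' processing notes. The model formula, any donor term and the strand setting were not stated there. Per the file headers, the authors deposited for each gene a mean signal (mean of counts divided by size factors, called mean normalized count), a log2 fold change with its SE, a Wald score, and a p-value with its adjusted p. Recomputing the Benjamini-Hochberg adjustment over 29383 genes gave the deposited adjusted p. The other 26067 genes had a mean of 0. The table has 4 further columns, 1 for each library, whose names match no label. They were not used, so depth per sample is unknown here and no count test was run, although one had been planned for labelled columns.

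All 55450 gene IDs matched GENCODE mouse M21 symbols. Exon lengths are unions of annotated exons, and GC content is that of the longest transcript. With Python 3.11.15, pandas 2.3.3 and scipy 1.17.1, 95% intervals were computed as fold change ± normal quantile times SE. A quadratic dependence of fold change on GC content and log2 length, weighted by inverse variance, was fitted over the 14547 genes whose mean was at least 10, and the fit was tested on simulated data. Running medians spanned 501 genes. Named genes were the 10, every family gene with a fold change, up to 4 of smallest unadjusted p per other list, and a few partners fixed by name. Further partners and marker genes named were chosen after their values were seen. Genes and lists were chosen with earlier results of these data known. The 2 cultures of a group came from separate mice, per the design text. Of the naive T cell list, 1 gene and the list's summary are not reported here.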

Additional observations from a re-analysis of the deposited data

How the results depend on the processing

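No paired analysis was possible because no library column could be tied to a culture. DESeq2 and edgeR refits, other normalizations and omission of a replicate were not run on that account. Against 0 genes past the threshold, 2 of the 10 (S100a6 and Lgals1) had an unadjusted p below 0.05, and 0 passed at an adjusted p below 0.1 or when the adjustment was limited to means of at least 10 or 50. All 10 stayed positive under centring on all genes, under subtraction of the running median and under subtraction of the GC and length dependence, weighted or not, and their median then ranged from 0.11 to 0.15. The amounts subtracted were small beside the fold changes, so the signs could hardly change. The smallest fold change, S100a10 at 0.10, was 0.08 after the running median and 0.06 after the weighted GC and length fit. Nothing is read from the kept direction. The unweighted fit and the median without S100a4 were chosen after the data were seen. The inverse-variance weighted mean was 0.16, and the median was 0.13 without S100a6 and 0.13 without S100a4. The median of CD8 T and NK cell markers, 0.15 at a minimum mean of 10, was -0.0270 with no minimum, and that of mast cell markers, -2.82, was 0.0252 at a minimum of 50, where Kit alone was left. What could be detected was set by the deposited standard errors. These may be too wide, since only 0.208% of all genes had an unadjusted p below 0.05 per the authors' deposited table. Of the 8183 genes whose mean was at least 200, 58 had such a p.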

Other observations

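Calcium binders of the EF-hand class outside the S100 family were all positive, 11 of 11 with a median of 0.06. The 4 of smallest unadjusted p were the calpain small subunit gene Capns1 at 0.12 ± 0.10, the calmodulin gene Calm3 at 0.09 ± 0.09, Cib1 at 0.15 ± 0.23 and the sorcin gene Sri at 0.06 ± 0.11 per the authors' deposited table, and none passed. After subtraction of the GC and length dependence, 10 of 11 were positive with a median of 0.05. Among genes of naive T cells, the transcription factor gene Tcf7 was at 0.12 ± 0.11, the migration receptor gene S1pr1 at 0.11 ± 0.12 and the chromatin organizer gene Satb1 at 0.04 ± 0.08 per the authors' deposited table, and none of these passed.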
